A study of Mus musculus with 5 samples.

Results

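In mouse embryonic stem cells treated with L-proline, 491 islands of the histone mark H3K9me3 each overlapped 2 or more separate islands of untreated cells. They were chosen by their measured width and overlap, as autosomal islands of the treated list under 10 kb wide that overlapped at least 2 islands of the untreated list by 1 bp or more. They are 491 of 23690 autosomal islands under 10 kb in the treated list, which held 25867 islands in all. An island is a broad stretch of enriched sequence made by joining enriched 200 bp windows, and a tag is a sequenced fragment end counted in it. Because the choice used the widths and positions of both H3K9me3 lists, every H3K9me3 value of these islands below is a description and carries no test.

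Trimethylation of lysine 9 of histone H3 is typical of silenced chromatin. It is written by SETDB1 and the SUV39H enzymes and bound by HP1 proteins, which can recruit more of the writing enzymes, so that the mark can extend along neighbouring nucleosomes. In embryonic stem cells it covers many endogenous retroviruses and satellite repeats. H3K36me3, trimethylation of lysine 36, is laid down by SETD2 behind elongating RNA polymerase II and marks the transcribed part of active genes.

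The cells were wild-type TBV2 cells, an embryonic stem cell (ESC) line from 129/SvP mice, grown with leukemia inhibitory factor in medium lacking non-essential amino acids. The untreated ESCs and the cells given L-proline at 500 µM, termed PiCs, were both seeded at low density on gelatin without feeders and kept for 5 days. Each of the 2 marks was mapped by chromatin immunoprecipitation and sequencing in both conditions, with 1 library per mark and condition, so no difference between ESCs and PiCs has a replicate check. The intervals below are exact binomial 95% intervals over islands or gaps, which are not replicates, and they cover counting error only.

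The H3K9me3 islands held 1511058 tags in the ESC list and 3514489 in the PiC list, a ratio of 2.33 that is not scaled to library depth. The depth of the libraries is unknown, and the share of it in the results below was not tested. No gene annotation or genome sequence of build mm9 was used here, so regions are given by position.

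Nearly all of the joining islands brought together a pair of ESC islands. There were 480 that met 2 ESC islands and 11 that met 3, and none met more. They made up 2.07% of the autosomal PiC islands under 10 kb (interval 1.89 to 2.26). The same rule with the lists exchanged found 239 ESC islands that met 2 or more PiC islands, or 1.37% of 17507 (1.20 to 1.55). Joining thus ran in both directions, and the PiC list held the larger number. With the PiC list cut to its 18464 islands with the most tags, the size of the ESC list, the numbers were 488 and 127. This cut takes away the PiC islands with the fewest tags. The full lists covered 91.4 Mb of the autosomes in PiCs and 53.2 Mb in ESCs, and the part of this difference in the numbers was not tested. The order turned when the ESC islands alone were first joined over 1 kb, with 167 joining islands and 347 reverse joins. At 53 of the 491 sites one of the joined ESC islands also met a further PiC island, so the ground there was divided differently rather than simply merged.

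The joining islands were 1.2 to 9.8 kb wide, with a median of 6.6 kb. The limit of 10 kb divides a continuous range. The 10 members at 9.8 kb had a median of 34.1 tags per kb in PiCs, and the 10 islands of exactly 10 kb that met 2 or more ESC islands had 46.9. Just inside, the islands at chr1:173833601-173843400, chr1:193963201-193973000 and chr3:8221401-8231200 held 457, 627 and 320 tags in PiCs over 478, 361 and 161 ESC tags. Just outside, those at chr1:8033201-8043200, chr1:48021801-48031800 and chr1:180092001-180102000 held 622, 472 and 452 over 398, 213 and 198. The islands named are only some of the 10 on each side. In all, 240 of the 732 autosomal PiC islands at or above 10 kb met 2 or more ESC islands. At the other threshold, 19 members overlapped one of their ESC islands by a single window of 200 bp, and 7 PiC islands that met 1 ESC island had another within 200 bp of an edge.

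The ESC islands that were joined were slightly narrower than the rest, which the width limit on the members favours by itself. The 992 joined ESC islands had a median width of 2.2 kb and 28.8 tags per kb, where the other 16705 autosomal ESC islands had 2.6 kb and 25.5 tags per kb. Their median tag count was 58 in both classes. The partners were often unequal, with the wider of a member's ESC islands 1.8 times the width of the narrowest in the median (quartiles 1.33 and 3). The ESC island with the most tags held a median of 63.7% of the tags of its group, and over 75% in 91 members.

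Most of the gaps that were bridged were short. Of the 502 gaps, 217 measured 800 bp, the smallest distance between islands in either list, and 116 measured 1000 bp. Together these made up 66.3%, whereas 58 gaps (11.6%) were over 2000 bp. If islands were called by joining windows over up to 3 empty windows of 200 bp, as the smallest gap implies, then 407 of the 502 gaps (81.1%) needed only 1 further enriched window to close. The longest bridged gap was 6.6 kb.

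The regions that joined the most ESC islands show how the patterns differ. On chromosome 9 the PiC island at chr9:11099201-11108800 was 9.6 kb wide and held 320 tags. It covered ESC islands of 3.2, 0.8 and 3.0 kb with 77, 33 and 61 tags, and the outer edges of both lists differed by 0.2 kb on either side. On chromosome 8, at chr8:52135801-52144800, 3 ESC islands of 34, 52 and 37 tags lay under a PiC island of 214 tags, and the longest gap between them was 1800 bp. Both of these sites are plain cases of separate islands drawn into one of about the same extent.

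A PiC island of 8.8 kb at chr17:66524401-66533200, with 292 tags, likewise covered ESC islands of 42, 81 and 40 tags and reached 0.2 and 0.8 kb past them. At chr14:64268001-64276600 an 8.6 kb PiC island with 400 tags met ESC islands of 190, 53 and 43 tags, the last of which reached 1 kb beyond it. This site also lay within H3K36me3, with 95.3% of its length under that mark in ESCs and 97.7% in PiCs.

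At the widest site with 3 ESC islands, on chromosome 1, the label of joining holds only in part. The PiC island at chr1:173833601-173843400 measured 9.8 kb and 457 tags, but the first of its ESC islands alone was 11.4 kb wide and reached 10.2 kb beyond the PiC edge. The ESC islands there held 277, 159 and 42 tags, a sum of 478 that exceeded the PiC count.

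The longest gaps closed lay between small ESC islands. At chr7:24312001-24320000 a PiC island of 213 tags spanned 6600 bp between ESC islands of 1.8 and 0.4 kb, which held 51 and 25 tags. At chr5:146571601-146580600 the gap was 5800 bp, the ESC islands held 35 and 46 tags, and the PiC island held 396. That was 4.89 times the summed ESC tags, the highest ratio of any member. Gaps of 4600 bp were closed at chr3:22594001-22601200, with 183 tags in PiCs and 44 and 41 in the ESC islands, and at chr15:50451601-50457000, with 130 tags in PiCs and 30 and 43 in the ESC islands. The fifth, at chr1:9425001-9433200, closed 4400 bp with 240 tags in PiCs, against 39 and 64. None of these regions touched H3K36me3 in either condition.

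**Figure D1:**
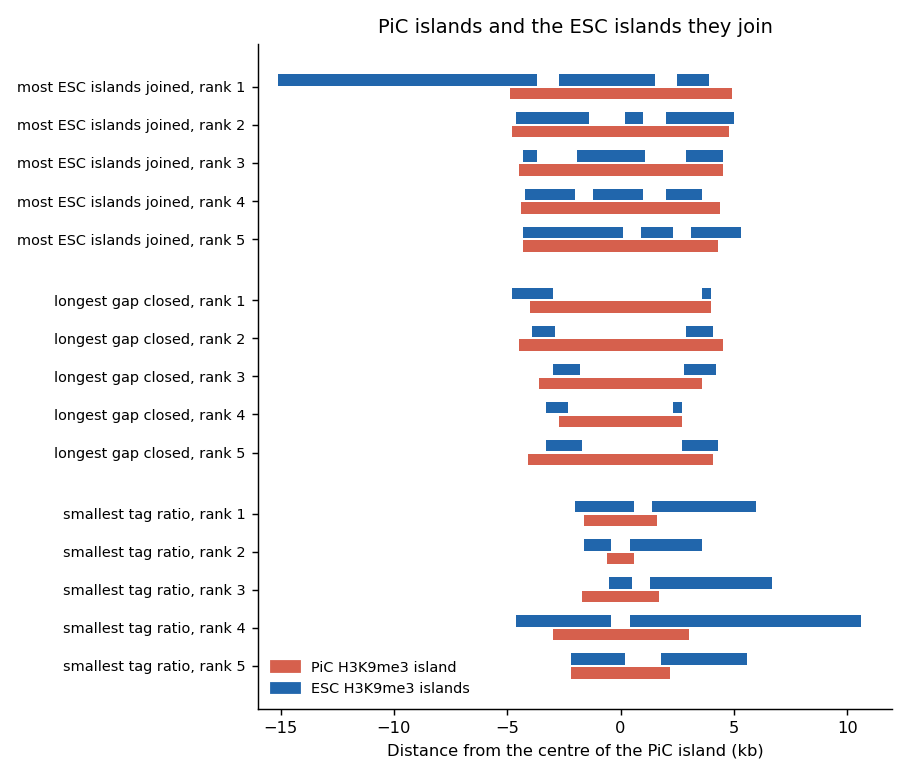
Maps of 15 joining regions, with the PiC island (red) drawn under the ESC islands it meets (blue), as distance in kb from the centre of the PiC island; the upper 5 join 3 ESC islands, the middle 5 close the longest gaps and the lower 5 have the smallest ratio of PiC to summed ESC tags. In the first row the ESC islands reach 10.2 kb beyond the PiC island, and in the lower 5 rows the last ESC island reaches past the right edge of the PiC island.

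The outer edges of the joining islands lay on either side of those of the ESC islands. Of 982 outer edges, 417 lay outward of the ESC edge, 271 coincided with it and 294 lay inward, and 54.0% were within 400 bp of it. Both edges coincided in 31 members. In 240 of the 491 members neither edge lay inward of the ESC edge, so only these covered the whole ESC ground. Measured against the stretch from the first to the last joined ESC island, 260 PiC islands were wider, 51 equal and 180 narrower. The median ratio was 1.03, in a range of 0.231 to 3.67. The choice left out PiC islands of 10 kb or more, so wider joins are not counted in it. The joining islands covered 3.19 Mb in sum, of which 67.0% was already under ESC islands, 19.7% lay in bridged gaps and 13.4% lay beyond the outer ESC edges. In turn, 16.2% of the bases of the joined ESC islands lay outside the joining islands.

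Members thus ranged from full mergers to small PiC islands set across a gap. At chr5:110319401-110320600 the PiC island was only 1.2 kb wide with 40 tags, and it held the 800 bp between ESC islands of 30 and 65 tags that extended 1 and 3 kb beyond it. At chr2:18378001-18381200 a PiC island of 69 tags met ESC islands of 39 and 229 tags, and the second reached 4.4 kb past it. Its PiC tags were 0.257 times the ESC sum, the lowest ratio of the members. The next were 0.421 at the chromosome 5 site, 0.488 at chr3:91013801-91017200 (81 tags against 166), 0.507 at chr15:76005001-76011000 (110 against 217) and 0.508 at a site on chromosome 18 (134 against 264). At these sites the PiC island was narrower than the ESC ground, and the counts cover different lengths.

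How often a gap of the ESC list was closed depended on its length. There were 2729 gaps of up to 5 kb between neighbouring autosomal ESC islands, and 786 of them (28.8%, interval 27.1 to 30.5) lay wholly inside a PiC island. Of these 786, the joining islands held 500, wider PiC islands held 279, and in 7 cases the PiC island ended at the gap's edge. Gaps of 800 bp were closed in 62.0% of cases (57.5 to 66.3), gaps of 1000 bp in 55.4% and gaps of 4200 to 5000 bp in 3.16%. Gaps of the PiC list were closed in ESCs less often in each class of length. The shares were 22.1% (19.3 to 25.1) at 800 bp, 10.2% at 1000 bp and 6.26% (5.58 to 6.99) over the 4699 PiC gaps of up to 5 kb. The 2 sets of gaps are unlike, since 10907 of the 23690 autosomal PiC islands under 10 kb met no ESC island. Of the 2161 ESC gaps with both flanks met by PiC islands, 36.3% (34.2 to 38.3) were closed. The like share of PiC gaps is not given here. With the PiC list cut by tags to the size of the ESC list, the shares over all lengths were 28.7% for ESC gaps and 5.90% for PiC gaps. With ESC islands first joined over 2 kb, which removes the shortest ESC gaps alone, they were 9.74% and 16.6%.

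**Figure D2:**
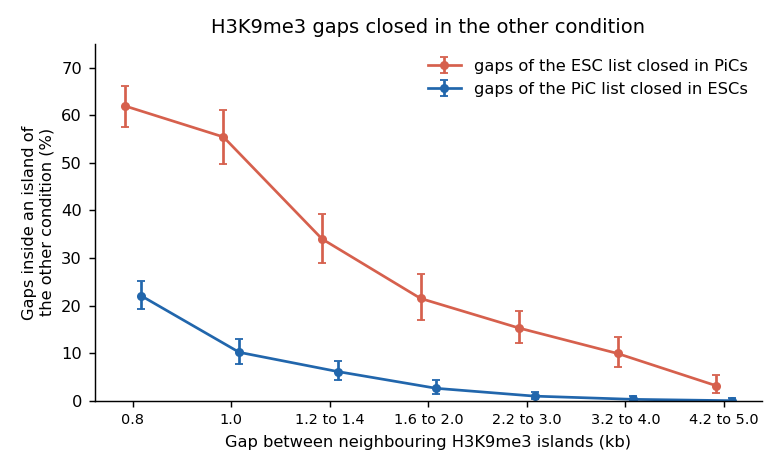
Share of gaps between neighbouring H3K9me3 islands that lie inside an island of the other condition (vertical axis, percent) by gap length in kb (horizontal axis), for gaps of the ESC list (red) and of the PiC list (blue), with exact binomial 95% intervals. Both shares are highest at 0.8 kb, 62.0% and 22.1%, and the ESC gaps lie above the PiC gaps in each length class.

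Gaps that were not closed were mostly kept between 2 surviving islands. Of the 2729 ESC gaps, 1377 (50.5%) had a PiC island on both flanks and remained a gap, 294 had one on a single flank and 272 had none on either. The gap length set these apart, with a median of 1000 bp in closed gaps and 2800 bp in gaps kept between 2 met flanks. The ESC density of the sparser flank was close in both, at 23.1 tags per kb in closed and 24.5 in kept gaps. It was 13.9 tags per kb where neither flank met a PiC island. Among gaps of up to 2 kb, split by flank density into 3 classes of like size, 35.5% (31.2 to 39.9) were closed where the flanks were sparsest, 55.1% (50.5 to 59.6) in the middle class and 46.6% (42.0 to 51.1) where they were densest.

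The joining islands held 40 to 863 tags in PiCs, with a median of 232, or 36.9 tags per kb. PiC islands that met 1 ESC island had a median of 35.8 tags per kb and those that met none 30.5. At the widths of the members, taken in 4 classes, the class medians averaged 35.2 and 28.6. The members were therefore close in density to islands with 1 ESC counterpart.

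Under the rule used here, their tags exceeded the ESC tags by no more than at other shared islands. The PiC count was a median of 1.70 times the summed count of the joined ESC islands (interval of the median 1.63 to 1.79), although the PiC count includes the bridged gap and the ESC sum does not. Among 12292 PiC islands that met 1 ESC island the ratio was 1.81 (1.80 to 1.83). Those islands were narrower, with a median width of 3.4 kb against 6.6 kb in members. The ratio of the members was 1.44 with a width limit of 5 kb and 1.83 (1.78 to 1.88) with none. With ESC islands first joined over 2 kb it was 2.12 (1.91 to 2.40). The like ratios of islands that met 1 are not given for these settings. A ratio of 2 or more was found for 153 members (31.2%), where the share over all autosomal PiC islands under 10 kb with an ESC island was 40.3%. A ratio under 1 was found for 46 members (9.37%), against 9.42% over the same islands. Per kb of island, the PiC density was 1.28 times the ESC density in members (1.25 to 1.31) and 1.35 times (1.34 to 1.36) at islands that met 1. In the reverse joins the summed PiC tags were a median of 1.90 times those of the ESC island (1.76 to 2.02).

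The ratio was larger where a longer gap was bridged. It was 1.63 (1.55 to 1.73) in the 212 members whose longest gap was 800 bp and 1.60 in the 112 with 1000 bp. In the 58 members with a gap over 2000 bp it was 2.17 (1.91 to 2.42). The last group also had more bridged sequence, which only the PiC count covers. After the chromosome 5 site named above, the highest ratios were 3.98 at chr4:5106001-5113000 (215 tags in PiCs against 54 in ESCs), 3.91 at chr1:156737801-156746400 (348 against 89), 3.77 at chr3:78267801-78274800 (196 against 52) and 3.68 at chr1:150194801-150201200 (254 against 69). The second of these 4 bridged only 800 bp but extended 5.2 kb past its left ESC edge, and none of the 4 touched H3K36me3.

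**Figure D3:**
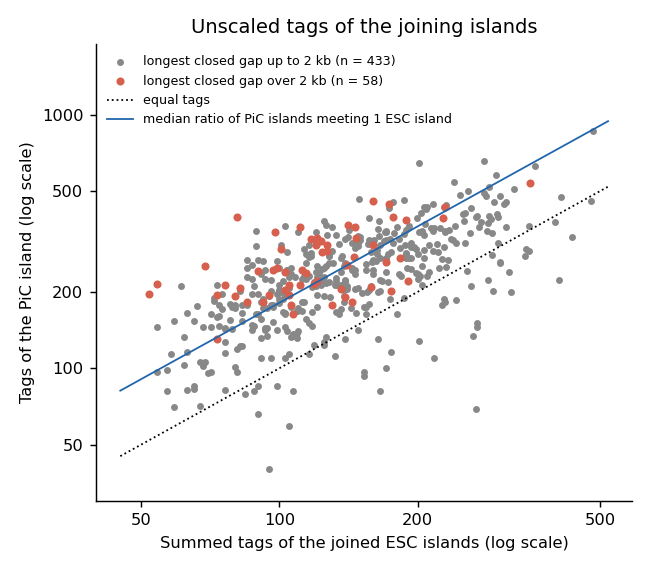
Tags of each of the 491 joining PiC islands against the summed tags of the ESC islands it meets, both on log scales and not scaled to depth, with members whose longest gap exceeds 2 kb in red. The blue line is the median ratio of PiC islands that meet 1 ESC island, 1.81, and 46 members lie below the dotted line of equal tags.

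The densest members in PiCs included sites of different kinds. The first, at chr5:105350201-105359800, held 863 tags in PiCs (89.9 per kb) over ESC islands of 258 and 224 tags, with the same left edge in both lists. At chr1:8525201-8534200 both edges coincided, and 655 tags in PiCs stood against 50 and 229 in the ESC islands. That site was free of H3K36me3 in ESCs and had 97.8% of its length under it in PiCs. At chr6:37822001-37828000, with 429 tags in PiCs and 58 and 115 in ESCs, H3K36me3 covered 86.7% in ESCs and 100% in PiCs. The other 2 were at chr1:48730401-48733000 (76.9 tags per kb) and chr6:52300801-52306000 (69.8), both narrower than the ESC islands they met and free of H3K36me3. The sparsest member was the site at chr15:76005001-76011000, with 18.3 tags per kb in PiCs and 15.1 in its ESC islands, and H3K36me3 covered all of it in both conditions. The next sparsest, at chr19:8386201-8391800, chr14:20057001-20060400, chr17:24038601-24042800 and chr10:57569001-57572400, held 66 to 106 tags in PiCs (18.9 to 20.9 per kb) and 67 to 90 in ESCs, with no H3K36me3.

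H3K36me3, whose libraries played no part in the choice, lay at a minority of the joining islands. Of the 491 members 34 (6.92%, interval 4.84 to 9.54) touched an H3K36me3 island of ESCs and 64 (13.0%, 10.2 to 16.3) one of PiCs. Over all autosomal PiC H3K9me3 islands under 10 kb the shares were 3.66% and 6.14%. PiC islands that met 1 ESC island touched H3K36me3 in 4.28% of cases in ESCs (3.93 to 4.65) and in 7.63% in PiCs (7.17 to 8.11). Those that met none did so in 2.82% and 4.15%.

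The members are wider than these other islands, and part of the contrast went with width. Weighted to the widths of the members, islands that met 1 ESC island touched H3K36me3 in 4.63% of cases in ESCs and in 9.20% in PiCs, each below the interval of the members, the first by a small margin. By width class the members stood above these islands at 6 to under 8 kb, with 17.6% (12.1 to 24.3) against 8.44% (7.03 to 10.0) for PiC H3K36me3. Under 4 kb the shares were 15.1% (6.75 to 27.6) and 6.72% (6.15 to 7.32). At 4 to under 6 kb and at 8 to under 10 kb the shares were alike, at 8.70% against 8.68% and 11.1% against 11.6%. For ESC H3K36me3 the members stood above at 6 to under 8 kb, with 10.3% (6.12 to 16.0) against 3.71%. Under 4 kb the ESC shares were 7.55% (2.09 to 18.2) and 4.13%. The members were slightly lower at 4 to under 6 kb, with 3.62% against 4.58%, and at 8 to under 10 kb, with 5.93% against 6.01%. When ESC islands closer than 1 kb or 2 kb had first been joined, the share of members with PiC H3K36me3 was 9.58% and 6.90%, against 7.82% and 7.84% for islands that met 1. By the longest gap of a member, PiC H3K36me3 was touched by 14.8% (11.1 to 19.2) of the 324 members with gaps of up to 1000 bp and by 9.58% (5.58 to 15.1) of the 167 with longer ones. No test between libraries was possible.

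**Figure D4:**
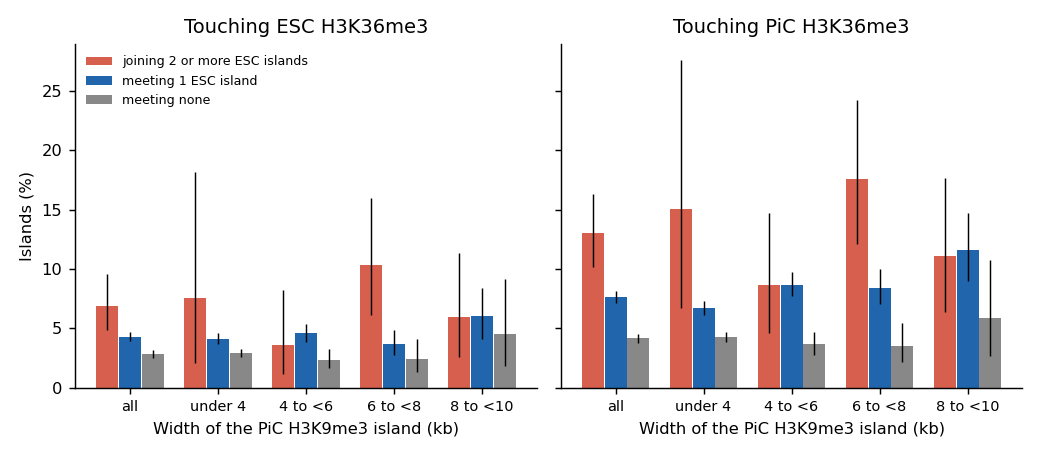
Share of autosomal PiC H3K9me3 islands under 10 kb that touch an H3K36me3 island of ESCs (left) or PiCs (right), in percent, by island width in kb, for islands joining 2 or more ESC islands, meeting 1 or meeting none, with exact binomial 95% intervals. The bars for all widths are 6.92%, 4.28% and 2.82% on the left and 13.0%, 7.63% and 4.15% on the right, and the intervals of the members are wide within width classes.

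More members touched H3K36me3 in PiCs alone than in ESCs alone, and so did islands that met 1 ESC island. There were 33 members with the mark in both conditions, 31 with it in PiCs alone and 1 with it in ESCs alone, and 426 had none. Among the 12292 islands that met 1 ESC island, 455 had it in PiCs alone and 43 in ESCs alone. The share of members with it in PiCs alone was 6.31% (4.33 to 8.84), against 3.70% (3.37 to 4.05) of islands that met 1 ESC island and 2.82% of all autosomal PiC islands under 10 kb. Where it touched a member, H3K36me3 usually covered most of it, with a median of 95.9% of the length in ESCs and 93.2% in PiCs. The H3K36me3 list of ESCs held 12280 islands with 26055650 tags and a median width of 12.8 kb. That of PiCs held 16804 islands with 15787192 tags and a median width of 8.6 kb. On the autosomes they covered 228 and 225 Mb. The H3K9me3 islands compared were those called in PiCs. The part of these differences in the counts was not tested.

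The members most fully under H3K36me3 were taken from 29 that lay wholly inside it in at least 1 condition. The widest, at chr11:17830201-17839600, held 382 H3K9me3 tags in PiCs over ESC islands of 144 and 109 tags, and the part under H3K36me3 was 40.4% in ESCs and 100% in PiCs. At chr10:78501001-78509400, with 576 tags in PiCs and 200 and 96 in ESCs, the coverage was none in ESCs and 100% in PiCs. Sites at chr4:57892201-57900400 (443 tags in PiCs, 235 and 73 in ESCs), chr8:23589601-23597600 (318, against 37 and 83) and on chromosome 18 (326, against 31 and 116) lay wholly within H3K36me3 in both conditions.

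Within the members H3K36me3 was not confined to the bridged sequence. In ESCs it covered 6.20% of the bases already under ESC H3K9me3 islands, 6.16% of the bridged gaps and 5.64% of the bases beyond the outer edges. In PiCs the values were 11.0%, 8.46% and 7.75%.

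Seen from the gaps, the order depended on which gaps the closed ones were set against. Of the 786 closed ESC gaps 5.98% (4.43 to 7.87) touched ESC H3K36me3 and 10.7% (8.61 to 13.1) PiC H3K36me3, where all 2729 gaps gave 6.52% and 9.6%. Closed gaps were shorter than the rest. Weighted to the lengths of the closed gaps, all gaps not closed touched ESC H3K36me3 in 10.3% of cases, above the interval of the closed gaps, and PiC H3K36me3 in 11.6%, inside it. The gaps that were not closed were of unlike kinds. Among the 272 with neither flank met in PiCs, 25.7% (20.6 to 31.4) touched ESC and 35.3% (29.6 to 41.3) PiC H3K36me3. Among those kept between 2 met flanks the shares were 2.40% (1.66 to 3.35) and 3.20% (2.33 to 4.27). With the same weighting these last became 4.61% and 4.05%, so that the closed gaps lay above the kept ones for PiC H3K36me3 and the ESC value lay inside their interval. The comparison with kept gaps was chosen after the values had been seen.

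The joining islands were found on all 19 autosomes, from 9 on chromosome 19 to 73 on chromosome 1. As a share of the PiC islands under 10 kb they made up 1.31% on chromosome 2 (interval 0.777 to 2.06) and 3.48% on chromosome 15 (2.44 to 4.81), the lowest and the highest, with a median of 1.99%. On no autosome did the reverse joins outnumber them. Chromosome 15 combined the highest share of members with the lowest share of closed gaps. Of its 119 ESC gaps of up to 2 kb, 34 were closed (28.6%, 20.7 to 37.6), where the median over autosomes was 46.9% and the next lowest, chromosome 12, had 39.1%. Chromosome 15 had more such gaps than any autosome but chromosome 1, which had 188.

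**Figure D5:**
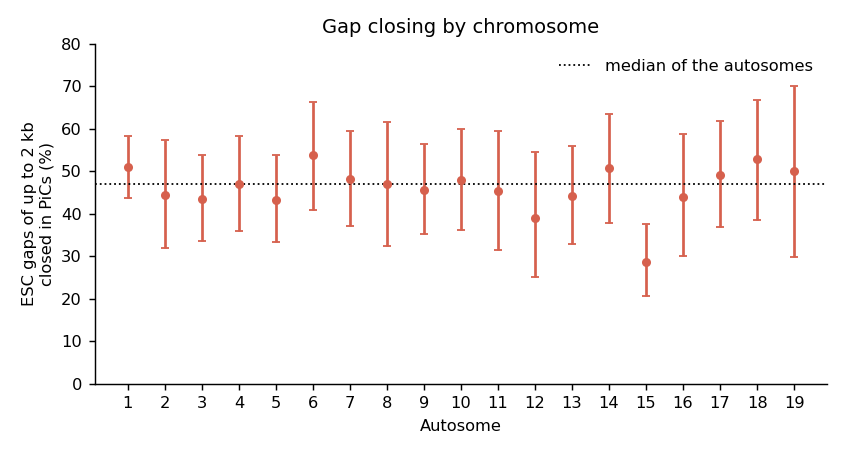
Share of ESC H3K9me3 gaps of up to 2 kb that lie inside a PiC island (vertical axis, percent) for each autosome (horizontal axis), with exact binomial 95% intervals and the median of the autosomes as a dotted line. Chromosome 15 is at 28.6% with an interval below the median of 46.9%, and the other 18 intervals include it.

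On chromosome 15 the low share was found in its distal part. Before 75 Mb, gaps of up to 2 kb were closed in 22 of 47 cases (46.8%, 32.1 to 61.9). Past this point they were closed in 12 of 72 (16.7%, 8.92 to 27.3). The boundary was picked with these same lists already seen. The contrast across it is therefore descriptive, and the intervals do not allow for that choice. The 13 members past 75 Mb had a median tag ratio of 1.15, against 1.55 in the 22 before it. Islands that met 1 ESC island moved alike, with 1.26 past the point and 1.71 before it. The distal members had a median width of 6 kb over ESC ground of 7.8 kb, and the proximal ones 5.6 kb over 5.7 kb.

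Members lay closer to other PiC islands than islands that met 1 ESC island did. The nearest other PiC island was a median of 4 kb away, and 54.4% of members had one within 5 kb. For islands that met 1 ESC island the values were 10 kb and 35.7%. The rule itself picks members where ESC islands lie close together, since each had to meet more than 1 of them. The classes were matched neither for the spacing of ESC islands nor for island width. The part of either in this contrast was not tested. Among themselves the members were spread out, with a median of 2754 kb to the next, and 63 of them fell into 29 groups in which neighbours lay within 100 kb. By the H3K36me3 content of the surrounding 5 Mb they were spread evenly. The class of windows poorest in ESC H3K36me3 held 28.7% of the members and the richest 24.0%, where islands that met 1 ESC island gave 28.5% and 21.5%. In the richest class 25.4% of members (17.9 to 34.3) touched PiC H3K36me3, against 13.5% (12.2 to 14.8) of islands that met 1, and in the poorest 6.38% (2.96 to 11.8) against 3.48% (2.90 to 4.14). In the second poorest class the PiC shares were 12.1% (6.76 to 19.4) and 5.87%. In the second richest they were alike, at 9.48% (4.83 to 16.3) and 9.34%. For ESC H3K36me3 the members stood lower in that class, at 2.59% (0.537 to 7.37) against 5.86%, and higher in the other classes. Weighted to the members' widths and window classes together, islands that met 1 gave 9.65% for PiC H3K36me3 and 5.04% for ESC H3K36me3, against 13.0% and 6.92% of the members. The PiC value lay below the members' interval (10.2 to 16.3). The ESC value lay inside theirs (4.84 to 9.54), where the value weighted to widths alone, 4.63%, was just below it.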

How the data were processed

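Per the submitters' processing notes, SICER and build mm9 were used. For the aligner, SICER's version and settings, duplicate removal and any use of the input as control, the sources used here give nothing. The deposited lists, 1 per library, give chromosome, start, end and a whole number, read as the tag count of the island and not scaled to depth. Starts and ends lay on a 200 bp grid, so each end was read as a window's final base, and positions are printed 1-based. The input library was not analysed here.

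Overlaps were computed with pandas 2.3.3 and numpy 2.4.6 under Python 3.11.15, intervals with scipy 1.17.1 and figures with matplotlib 3.10.9. Shares carry Clopper-Pearson intervals, and medians of ratios an exact binomial interval from order statistics. PCR copies are not independent molecules. No p-value is given, since each condition has 1 library. The counting was tested on simulated data, the ESC list with 50, 200 and 400 planted closed gaps, and missed 0 of the joining islands so made.

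The members and comparisons were chosen with earlier results of these data known. Named regions follow a rule: the 5 members joining most ESC islands, closing the longest gap, with most or fewest tags per kb, with the largest or smallest tag ratio or with most H3K36me3, and the widest 3. Alternatives were 50% of an ESC island inside the member, other width limits, lists cut by tags, ESC islands joined over 1 or 2 kb, other chromosomes, a minimum width of 1 kb, gaps of up to 2 kb and 50% of the member under H3K36me3. The weighting by 5 Mb windows, the gaps kept between 2 met flanks and the split of chromosome 15 were chosen after seeing the data.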

Additional observations from a re-analysis of the deposited data

How the results depend on the processing

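With 1 library per condition no replicate could be left out. No paired analysis was possible because a group is a single library. Of 87 values under 12 alternatives, 56 stayed within the counting interval (counts within 1.5 times) and 31 moved. A change of direction was not scored for single values, and the order of 2 values compared could turn. The 56 values are not listed, and the causes were not tested beyond what each setting does by construction. The 491 joining islands became 118 with a width limit of 5 kb, 118 with the 50% of islands richest in tags, 167 with ESC islands joined over 1 kb and 58 over 2 kb, so that reverse joins outnumbered them with both joinings. The 239 reverse joins became 109 with 50% of the joined island inside, 111 with the 5 kb limit, 74 with the better 50%, 127 with lists of equal size and 493 with ESC islands joined over 2 kb. Closed ESC gaps went from 28.8% to 45.7% for gaps of up to 2 kb, 15.9% after joining over 1 kb and 9.74% over 2 kb, and closed PiC gaps from 6.26% to 11.5%, 10.1% and 16.6%, so the order of the directions turned with joining over 2 kb. The tag ratio of 1.70 became 1.84 with 50% inside, 1.83 with no width limit, 1.44 with the 5 kb limit, 1.49 with the better 50%, and 1.86 and 2.12 with joining over 1 and 2 kb. The share of members at ESC H3K36me3 became 3.39% with the 5 kb limit and 11.9% with the better 50%, and that at PiC H3K36me3 16.9% with the better 50% and 9.58% and 6.90% with joining over 1 and 2 kb. At islands that met 1 ESC island the PiC share of 7.63% became 10.7% with the better 50%, 7.15% with the 5 kb limit and 6.996% with 50% of the island under H3K36me3. In closed gaps the PiC share became 8.20% and 7.20% with the same joining.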

Other observations

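Of the groups in which neighbours lay within 100 kb, those with the most joining islands held 3. They lay at chr5:146727201-146769600 (42.4 kb), chr9:17941201-18021000 (79.8 kb), chr7:50135801-50241000 (105.2 kb), chr15:27208801-27324400 (115.6 kb) and chr7:34811801-34968000 (156.2 kb). On chromosomes X and Y together, which the choice left out, 8 PiC islands under 10 kb met 2 or more ESC islands. Of the 239 ESC islands that met 2 or more PiC islands, 50 were themselves joined within a member.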
